A study of Mus musculus with 8 samples.

Results

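Colony-stimulating factors are the growth factors of the macrophage and granulocyte lineages, and the genes described here are their ligands and receptors that the RNA of mouse Kupffer cells could hold. They were taken by symbol: the receptor Csf1r, its ligands Csf1 and Il34, the receptor chains Csf2ra, Csf2rb and Csf2rb2, and Csf3r. These are 7 of the 32903 genes to which the transcripts in the deposited tables could be assigned, and 6 of the 15629 genes that reached 1 TPM in at least 3 libraries and were tested. TPM is a transcript level per unit of length, scaled to the library total. Kupffer cells are the resident macrophages of the liver.

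Bulk RNA-seq was carried out on Kupffer cells of wild-type mice in 2 groups. The 3 CCl4 libraries came from fibrotic livers of mice that received carbon tetrachloride, a hepatotoxin, in corn oil with 3 doses of 0.75 mL/kg in each of 8 weeks. The 5 naive libraries came from untreated mice, for which no corn oil control is named, so the oil and the toxin cannot be told apart. The CCl4 libraries carry the numbers 1, 2-4 and 3, and whether 2-4 is a pool of mice is not stated. How the cells were isolated or sorted is not given in the sources used here. No label ties a library to 1 animal, and the p-values below rest on the spread among libraries, part of which may be technical.

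CSF1R is a receptor tyrosine kinase on which the survival and proliferation of tissue macrophages, Kupffer cells among them, depend, and CSF-1 and IL-34 are its ligands. The GM-CSF receptor pairs a specific alpha chain with a common beta chain that the receptors for IL-3 and IL-5 share, and signals through JAK2 and STAT5. The mouse has a further beta chain, encoded by Csf2rb2, which serves the IL-3 receptor alone, and the G-CSF receptor is best known from neutrophils and their precursors.

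The libraries held between 14059 and 15063 genes at 1 TPM or more, and the depth behind them is unknown, since TPM keeps none. Macrophage RNA was abundant in both groups: C1qb, a complement subunit made by macrophages, averaged 1807 ± 629 TPM in CCl4 and 1499 ± 373 TPM in naive libraries (SD, n = 3 and 5). The 12 Kupffer cell markers summed to 941.9 ± 101 TPM in CCl4 and 4798 ± 1248 TPM in naive libraries, and limma called 11 of them lower in CCl4, among them Clec4f, a lectin particular to Kupffer cells, at 77.7 ± 11.0 TPM and 1397 ± 416 TPM. All 17 markers of sinusoidal endothelium were called lower as well, with sums of 717.4 ± 198 TPM in CCl4 and 12235 ± 2833 TPM in naive libraries. Markers of monocytes summed to 1106 ± 144 TPM in CCl4 and 294.3 ± 72.1 TPM in naive libraries, and immediate early and dissociation stress genes to 6930 ± 1429 TPM and 3256 ± 396 TPM. The cell preparations of both groups thus held RNA of endothelial markers, and in bulk RNA fewer cells of a type and less RNA per cell cannot be told apart. All fold changes below are differences between CCl4 and naive means of log2(TPM + 1), with p-values from limma adjusted over all tested genes by the Benjamini-Hochberg method and a threshold of 0.05.

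The GM-CSF receptor alpha chain, both beta chains and the G-CSF receptor were higher in CCl4 libraries and the ligand Csf1 was lower. Of the 6 tested genes, Csf2ra, Csf2rb, Csf2rb2 and Csf3r rose by about 1.08 to 1.57 on the log2 scale, Csf1 fell by 3.00, and Csf1r did not pass the test. Across all tested genes, 37.8% were called, 15.3% as higher and 22.5% as lower in CCl4 libraries. The 3 CCl4 and the 5 naive values did not overlap for the same 5 genes, against 36.9% of all tested genes, 16.3% with the CCl4 values above and 20.6% with them below. For scale, 6.87% of tested genes were called and higher by at least 1 on the log2 scale, and 1.95% were called and lower by at least 3. These cutoffs lie just under the differences of the 5 genes themselves, so the shares only describe the background. In some other settings a difference falls short of its cutoff, such as -2.48 for Csf1 with 5 TPM added.

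**Figure D1:**
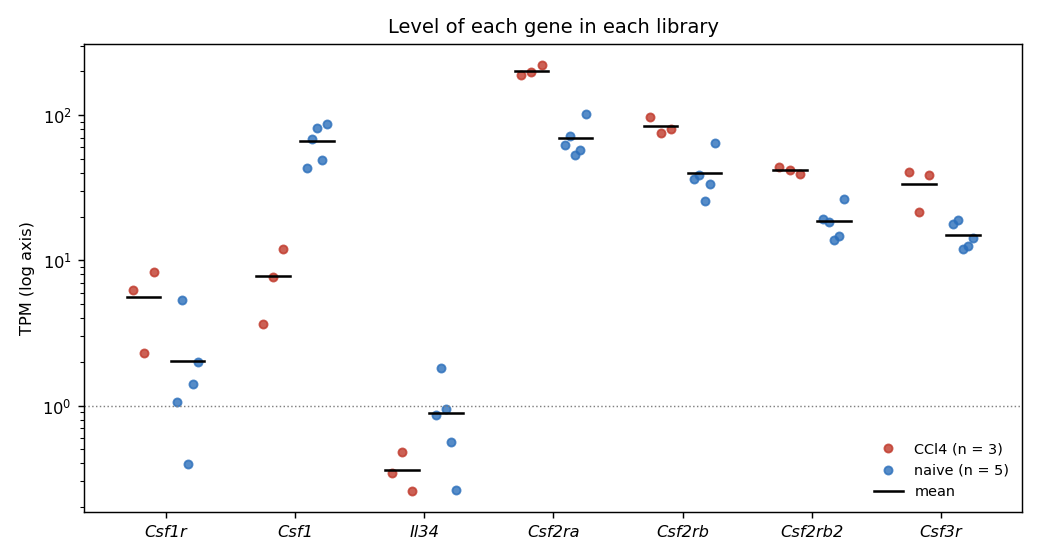
Levels of the 7 genes in TPM on a log axis, with each point 1 library, CCl4 libraries left of naive libraries, the bar at the mean and the dotted line at 1 TPM. The groups overlap for Csf1r and Il34, the CCl4 points lie below all naive points for Csf1 and above them for Csf2ra, Csf2rb, Csf2rb2 and Csf3r.

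Csf1r, the receptor for CSF-1 and IL-34, lies on chromosome 18 at positions 61105572 to 61131139 of GRCm38. It had 6.23, 2.31 and 8.31 TPM in CCl4 replicates 1, 2-4 and 3, against 1.06, 5.29, 0.393, 1.402 and 1.98 TPM in naive replicates 1 to 5. CCl4 replicate 2-4 was below naive replicate 2, so the groups overlapped. The means were 5.62 ± 3.05 TPM in CCl4 and 2.02 ± 1.91 TPM in naive libraries (SD, n = 3 and 5), and the log2 difference of 1.20 (SE 0.462) had a limma adjusted p of 0.0645. The call turned on single libraries: without CCl4 replicate 2-4 the difference was 1.63 (limma adjusted p = 0.0254), and without naive replicate 2 it was 1.51 (limma adjusted p = 0.0124).

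These levels were low beside other macrophage genes and rest on 1 transcript, NM_001037859.2, the single transcript that the gene table lists for Csf1r. As a single transcript it gave an adjusted p of 0.143 in a limma fit over 29401 transcripts, of which 20.1% were called. The tables also list 20662 transcripts without a gene match, holding 6.06% to 7.58% of TPM, so whether the Csf1r value is complete is not known. Among naive libraries Csf1r was lowest in replicate 3 and highest in replicate 2, and among CCl4 libraries it was lowest in replicate 2-4. Of 12 macrophage markers, a list without Csf1r, 5 rose and 1 fell, with 2 rising when CCl4 replicate 1 was left out. Their sum was likewise lowest in naive replicate 3 (4189 TPM) and highest in naive replicate 2 (7986 TPM). Among CCl4 libraries the sum was likewise lowest in replicate 2-4 (5989 TPM). It was highest there in replicate 1 (13362 TPM), however, while Csf1r was highest in replicate 3. Naive replicate 1 exceeded naive replicate 4 in the sum but not in Csf1r. The part of macrophage content in the Csf1r result was not tested.

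Genes known to act downstream of CSF1R or to transcribe it moved in both directions, more of them upward. Of 24 tested CSF1R signalling genes, 15 rose and 2 fell (12 to 15 and 2 with a library left out), with a median log2 difference of 0.62 against -0.06 for all tested genes. Syk, a kinase recruited by immunoreceptor adaptors, rose by 1.61 to 220.9 ± 21.4 TPM in CCl4, against 73.1 ± 17.995 TPM in naive libraries. Plcg2, a phospholipase, rose by 1.61, Pik3cd, a catalytic subunit of PI3 kinase, by 1.30, and Inpp5d, the phosphatase SHIP1, by 1.26. The members that fell were Fyn, a Src family kinase, by 1.78, and Socs1, a suppressor of cytokine signalling, by 1.50. Both are expressed in many cell types.

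Among 12 transcription factors known to bind or regulate the Csf1r gene or to act beside it in macrophages, 7 rose and 1 fell. Runx1 rose by 1.88 to 34.1 ± 5.51 TPM in CCl4, against 8.64 ± 2.09 TPM in naive libraries. Cebpa rose by 1.62, Spi1, which encodes PU.1, by 0.87, and Fos by 1.20. Fos is also on the list of immediate early and dissociation stress genes, of which 16 of 20 rose. Ets2 fell by 2.34 to 32.2 ± 5.72 TPM in CCl4, against 172.3 ± 49.2 TPM in naive libraries. The count of 7 was 4 without CCl4 replicate 3 and also 4 without naive replicate 4.

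**Figure D2:**
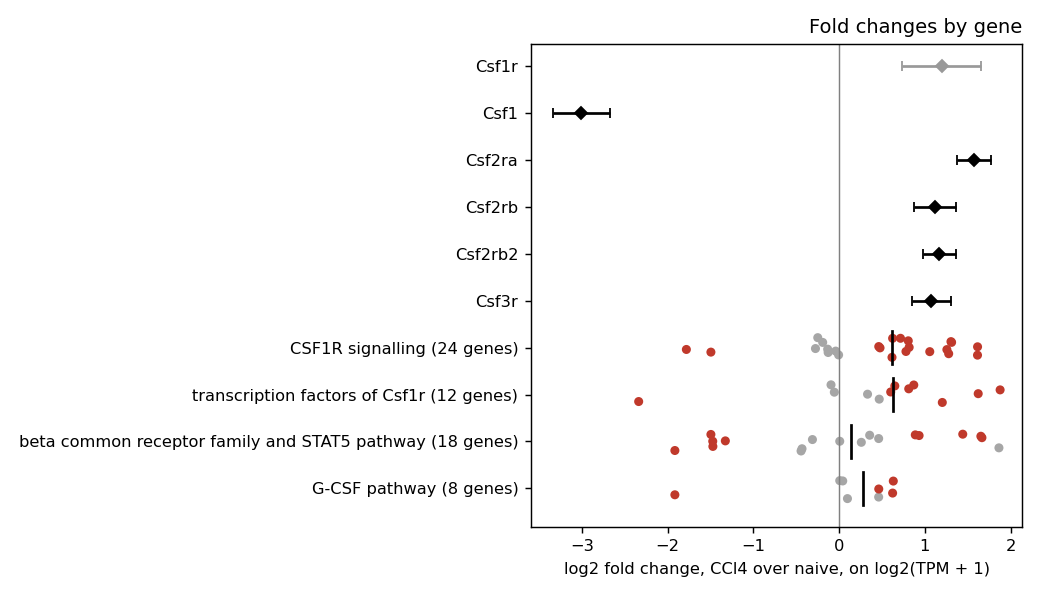
Log2 fold changes (CCl4 over naive, on log2(TPM + 1)) of the 6 tested receptor and ligand genes as diamonds with their standard errors, and of the tested genes of 4 pathway lists as dots. Black diamonds and red dots mark a limma adjusted p under 0.05, grey marks the others, and the black bar is the median of a list. Csf1 at -3.004 lies on the side opposite to the 4 called receptor genes.

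Csf1, the ligand that most tissue macrophages depend on, lies on chromosome 3 at positions 107741048 to 107760469 on the minus strand of GRCm38. It had 3.64, 7.68 and 12.0 TPM in CCl4 replicates 1, 2-4 and 3, against 43.3, 68.7, 81.6, 49.3 and 87.1 TPM in naive replicates 1 to 5. All CCl4 libraries were below all naive libraries, and the lowest naive value was 3.61 times the highest CCl4 value. The means were 7.77 ± 4.17 TPM in CCl4 and 66.0 ± 19.3 TPM in naive libraries (SD, n = 3 and 5), a fall by 3.00 on the log2 scale (SE 0.328, limma adjusted p = 4.55e-05). By its mean Csf1 ranked 8248th of all genes in CCl4 and 1429th in naive libraries.

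All 3 Csf1 transcripts fell together. In the GENCODE models paired with them by accession, NM_007778.4 and NM_001113530.1 encode 552 residues and differ in length outside the coding part, at 4176 and 2097 bases, while NM_001113529.1 encodes a shorter protein of 257 residues. NM_007778.4 averaged 5.32 ± 4.44 TPM in CCl4 and 46.0 ± 16.3 TPM in naive libraries, and fell by 3.04 (limma adjusted p = 0.00155). NM_001113529.1, the shorter form, averaged 1.62 ± 1.55 TPM in CCl4 and 12.995 ± 2.23 TPM in naive libraries, and fell by 2.60 (limma adjusted p = 0.00165). NM_001113530.1 averaged 0.828 ± 0.681 TPM in CCl4 and 7.01 ± 3.18 TPM in naive libraries, and fell by 2.12 (limma adjusted p = 0.00506). The shorter form made up 1.31% to 42.2% of Csf1 TPM in CCl4 and 13.9% to 28.6% in naive libraries, so the shares overlapped.

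Csf1 is also made by endothelial and stellate cells of the liver, and markers of both cell types were measured. The 17 endothelial markers, with Clec4g and Aqp1 the most abundant, all fell with a median log2 difference of -4.40. None was at 0: Clec4g averaged 89.0 ± 42.2 TPM in CCl4 and 2289 ± 586 TPM in naive libraries, and Aqp1 100.9 ± 57.1 TPM and 1605 ± 338 TPM. Of 12 stellate cell and fibroblast markers 4 rose and 2 fell (2 rose and 1 fell without any 1 of the CCl4 libraries), with sums of 153.1 ± 9.30 TPM in CCl4 and 89.2 ± 26.8 TPM in naive libraries. Within the naive group, replicates 1 to 4 had the same order by Csf1 and by the endothelial sum. Replicate 5 departed from this, with the highest Csf1 level, 87.1 TPM, and the lowest endothelial sum, 8037 TPM. Among CCl4 libraries the endothelial sum was 514.9, 909.6 and 727.7 TPM in replicates 1, 2-4 and 3. Csf1 was likewise lowest in replicate 1 there, but highest in replicate 3. The part of these cells in the Csf1 result was not tested. The plot of Csf1 against the endothelial sum shows naive replicate 5 apart from the other naive libraries.

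The genes whose levels were most like Csf1 over the 8 libraries, among tested genes with a mean of at least 10 TPM, were Gja1 (Pearson r of log2(TPM + 1) 0.993), which encodes connexin 43, Amigo2 (0.991), which encodes an adhesion molecule, and Gja4 (0.991), which encodes connexin 37. After the group means were subtracted, r was 0.943, 0.911 and 0.942 for these genes. The libraries share their scaling and their group difference, so the values are a description. For Csf1r the same measure named the histone gene H2bc7 (0.926), the adaptor gene Dok3 (0.925) and the histone gene H2ac22 (0.924).

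Il34 encodes the other CSF1R ligand, which keratinocytes and neurons are known to make. The gene lies on chromosome 8 at positions 110741829 to 110805949 of GRCm38. It had 0.345, 0.481 and 0.260 TPM in CCl4 replicates 1, 2-4 and 3, against 0.866, 1.80, 0.949, 0.560 and 0.261 TPM in naive replicates 1 to 5. The groups overlapped, only naive replicate 2 reached 1 TPM, and Il34 was not tested. Fitted without a filter on low values, the log2 difference was -0.42 (limma adjusted p = 0.248).

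Within each library Csf1 exceeded Il34. The log2 ratio of Csf1 to Il34, each with 1 TPM added, averaged 2.57 ± 0.790 in CCl4 and 5.15 ± 0.640 in naive libraries (SD, n = 3 and 5). The difference of -2.58 had an exact two-sided permutation p of 0.0357, the smallest that 56 splits allow, and 0.107 after Benjamini-Hochberg adjustment over the 3 ratios computed, so it did not pass. Ptprz1, a further receptor for IL-34, was at most 0.0649 TPM in any library, and Sdc1, the syndecan-1 gene whose product also binds IL-34, averaged 2.58 ± 0.616 TPM in CCl4 and 3.24 ± 0.579 TPM in naive libraries and did not pass the test.

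Csf2ra, the GM-CSF specific alpha chain, had the highest mean of the 7 genes in both groups, although in naive libraries its range overlapped that of Csf1. It lies on chromosome 19 at positions 61217191 to 61228461 on the minus strand of GRCm38. It had 189.6, 196.4 and 220.3 TPM in CCl4 replicates 1, 2-4 and 3, against 62.4, 71.5, 53.0, 57.5 and 101.5 TPM in naive replicates 1 to 5. All CCl4 libraries were above all naive libraries, with the lowest CCl4 value 1.87 times the highest naive value. The means were 202.1 ± 16.1 TPM in CCl4 and 69.2 ± 19.3 TPM in naive libraries (SD, n = 3 and 5), a rise of 1.57 (SE 0.198, limma adjusted p = 0.000121). Csf2ra ranked 355th of all genes in CCl4 and 1334th in naive libraries.

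The RefSeq transcript NM_009970.2 carried 91.9% to 94.3% of Csf2ra TPM in every library and rose by 1.58 (limma adjusted p = 0.000985). The other 2 tested transcripts, predicted forms named XM_011247132.2 and XM_011247134.2, rose by 1.10 and 1.30. In all, 42 transcripts of the 7 genes were listed, 17 were tested, 7 rose and 3 fell, where 7.99% of all tested transcripts were called higher and 12.1% lower.

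Csf2rb encodes the common beta chain, the signalling chain of the GM-CSF, IL-3 and IL-5 receptors, on chromosome 15 at positions 78325800 to 78351001 of GRCm38. It had 96.7, 75.5 and 79.7 TPM in CCl4 replicates 1, 2-4 and 3, against 36.2, 38.4, 25.6, 33.8 and 64.2 TPM in naive replicates 1 to 5. The groups did not overlap, and the lowest CCl4 value was 1.18 times the highest naive value, in replicate 5. The means were 84.0 ± 11.2 TPM in CCl4 and 39.7 ± 14.6 TPM in naive libraries (SD, n = 3 and 5), a rise of 1.12 (SE 0.245, limma adjusted p = 0.0043).

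Csf2rb2, the IL-3 specific beta chain of the mouse, is the neighbouring gene on chromosome 15, at positions 78282507 to 78305721 on the minus strand, 20078 bases from Csf2rb with no other gene of the RefSeq table between them. It had 44.0, 42.0 and 39.4 TPM in CCl4 replicates 1, 2-4 and 3, against 19.3, 18.4, 13.9, 14.6 and 26.3 TPM in naive replicates 1 to 5. All CCl4 libraries were above all naive libraries, and naive replicate 5 was again the highest of its group. The means were 41.8 ± 2.32 TPM in CCl4 and 18.5 ± 4.96 TPM in naive libraries (SD, n = 3 and 5), a rise of 1.17 (SE 0.195, limma adjusted p = 0.000828). Its main transcript NM_007781.3, with a protein of 878 residues in the paired model, rose by 1.11 (limma adjusted p = 0.0017), while NM_001287389.1, with 769 residues, differed by 1.23 and did not pass (limma adjusted p = 0.0711).

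The beta chain genes are near copies, which bears on how reads could be divided between them. Their coding sequences were identical at 2505 of 2631 aligned positions, or 95.2%, and differed at 126. The transcripts NM_007780.4 of Csf2rb and NM_007781.3 of Csf2rb2 shared 1369 words of 31 bases, which is 28.9% of those of Csf2rb and 29.1% of those of Csf2rb2. The remaining 71.1% of Csf2rb words and 70.9% of Csf2rb2 words were absent from the other transcript. The coding alignment also held 66 gap positions. The pair of coding stretches below, 75 bases each in coding direction on GRCm38, is the gap-free pair with the most differences, 14. It is shown because such bases can tell the genes apart, and capitals mark the bases that differ. The Csf2rb stretch lies at chr15:78338905-78338979 on the plus strand and the Csf2rb2 stretch at chr15:78294352-78294426 on the minus strand.
Csf2rb: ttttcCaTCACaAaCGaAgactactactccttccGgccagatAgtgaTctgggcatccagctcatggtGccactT
Csf2rb2: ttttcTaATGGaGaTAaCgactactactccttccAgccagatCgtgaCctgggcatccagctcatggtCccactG

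In other stretches no base differs, so that a read lying within one could come from either gene. An example of 75 bases is at chr15:78341391-78341465 on the plus strand for Csf2rb and at chr15:78291844-78291918 on the minus strand for Csf2rb2, with the same letters in both.
Csf2rb and Csf2rb2: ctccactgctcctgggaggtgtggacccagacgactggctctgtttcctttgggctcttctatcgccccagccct

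The separate levels of these genes are therefore uncertain as far as reads lay in shared stretches, while both rose. The log2 ratio of Csf2rb2 to Csf2rb averaged -0.98 ± 0.143 in CCl4 and -1.03 ± 0.178 in naive libraries (SD, n = 3 and 5). The difference of 0.05 was smaller than either spread (exact two-sided permutation p = 0.643, and 0.643 after adjustment over 3 ratios). Csf2rb2 was below Csf2rb in every library. The log2 ratio of Csf2ra to Csf2rb averaged 1.26 ± 0.261 in CCl4 and 0.81 ± 0.141 in naive libraries, with ranges of 0.96 to 1.45 and 0.65 to 1.02 that overlapped. That difference of 0.45 had an exact two-sided permutation p of 0.0714, and 0.107 after adjustment.

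Promoters of Csf1, Csf2ra, Csf2rb2 and Csf3r, from 250 bases before the transcription start to 50 bases after it, were searched on both strands for GAGGAA, the core of PU.1 sites, for TTCNNNGAA, the STAT motif, and for TGANTCA, the AP-1 motif. A match to these motifs is present on either strand in 28.3%, 8.3% and 7.81% of 32851 mouse promoters of the same length, and the motifs overlapped nowhere in the windows below. The sequences are RefSeq's for GRCm38.p6, each 5′ to 3′ on the gene's own strand, with matches in capitals. They are shown because the receptor genes rose and Csf1 fell. The window of Csf2ra, at chr19:61228369-61228668 on the minus strand, held GAGGAA with its first base at -14 and -8, counted from the start site, which has no position 0.
Csf2ra: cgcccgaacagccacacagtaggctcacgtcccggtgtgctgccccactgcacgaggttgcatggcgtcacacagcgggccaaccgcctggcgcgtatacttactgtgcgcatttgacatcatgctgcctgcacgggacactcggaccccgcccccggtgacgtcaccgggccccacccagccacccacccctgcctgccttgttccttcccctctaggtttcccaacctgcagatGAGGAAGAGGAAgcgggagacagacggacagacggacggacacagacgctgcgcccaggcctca
The window of Csf2rb2, at chr15:78305672-78305971 on the minus strand, held TTCCTC, which is GAGGAA on the other strand, at positions -167 and 30, and a STAT motif at -15.
Csf2rb2: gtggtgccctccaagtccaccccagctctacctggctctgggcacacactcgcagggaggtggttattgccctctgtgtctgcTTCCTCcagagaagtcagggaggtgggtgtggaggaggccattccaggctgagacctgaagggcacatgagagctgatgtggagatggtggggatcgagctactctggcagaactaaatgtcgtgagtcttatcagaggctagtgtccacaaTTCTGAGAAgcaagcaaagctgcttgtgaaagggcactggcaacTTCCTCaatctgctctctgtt
The window of Csf1, at chr3:107760420-107760719 on the minus strand, held none of the motifs.
Csf1: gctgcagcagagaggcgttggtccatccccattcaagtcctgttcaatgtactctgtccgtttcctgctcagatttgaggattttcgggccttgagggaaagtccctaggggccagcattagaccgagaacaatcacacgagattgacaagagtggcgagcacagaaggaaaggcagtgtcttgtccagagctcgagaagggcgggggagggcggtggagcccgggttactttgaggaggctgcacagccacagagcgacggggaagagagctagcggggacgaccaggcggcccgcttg

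A match says only that the letters are present. The windows of Csf1r, Csf2rb and Il34 were not analysed here. The window of Csf3r held GAGGAA once, at -86, and no AP-1 motif was found in the windows of Csf1, Csf2ra, Csf2rb2 or Csf3r.

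The ligands of these receptors were near the detection range of the tables. Csf2, which encodes GM-CSF, was between 0.0501 and 0.363 TPM in CCl4 and between 0.705 and 1.57 TPM in naive libraries and was not tested. Il3 was at most 0.507 TPM in CCl4 and 1.67 TPM in naive libraries and did not pass the test, and Il5 was at most 0.0315 TPM and 0.104 TPM. The alpha chain Il3ra, unlike Csf2ra, fell by 1.33 to 15.5 ± 8.45 TPM in CCl4, against 36.7 ± 4.73 TPM in naive libraries (limma adjusted p = 0.00496). Il5ra, the IL-5 receptor alpha chain, averaged 7.27 ± 1.58 TPM in CCl4 and 5.84 ± 0.490 TPM in naive libraries and did not pass.

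Of 18 tested genes of the beta common receptor family and the STAT5 pathway, 5 rose and 5 fell, with a median of 0.13. Pim1, a kinase gene induced by STAT5, rose by 1.65 to 256.4 ± 75.4 TPM in CCl4, against 79.8 ± 18.8 TPM in naive libraries. Mcl1, a survival factor, rose by 0.89. The STAT5 induced inhibitors Cish and Socs2 each fell by 1.47, Socs1 fell by 1.50, and the kinase gene Jak1 by 1.92. Members known as STAT5 targets therefore stood on both sides. The kinase gene Jak2, which the beta chain uses, averaged 71.0 ± 23.0 TPM in CCl4 and 50.01 ± 6.74 TPM in naive libraries and did not pass (limma adjusted p = 0.0871).

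Some marker genes of monocytes, which express GM-CSF receptors, rose as these genes did. Of 12 tested monocyte markers 6 rose, 1 fell and 5 were not called, with a median log2 difference of 0.66. The sums were 972.6 to 1258 TPM in CCl4 and 244.0 to 419.8 TPM in naive libraries, with none of the 14 listed markers at 0 throughout. Ccr2, a chemokine receptor of monocytes, averaged 251.1 ± 63.9 TPM in CCl4 and 18.6 ± 11.1 TPM in naive libraries, and S100a4 averaged 221.6 ± 29.1 TPM and 22.4 ± 13.2 TPM. Naive replicate 5 had the highest naive monocyte sum, 419.8 TPM, and the highest naive levels of Csf2ra, Csf2rb and Csf2rb2. Without it Csf2ra rose by 1.71, Csf2rb by 1.31 and Csf2rb2 by 1.30. Among CCl4 libraries the monocyte sum was 1258, 1087 and 972.6 TPM in replicates 1, 2-4 and 3. Csf2ra had the reverse order there and Csf2rb2 the same order, while Csf2rb was highest in replicate 1 and lowest in replicate 2-4. Of 14 dendritic cell markers 7 rose and 3 fell, and the sums were 861.1 ± 168 TPM in CCl4 and 528.0 ± 39.5 TPM in naive libraries. The part of these cell types in the receptor results was not tested.

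**Figure D3:**
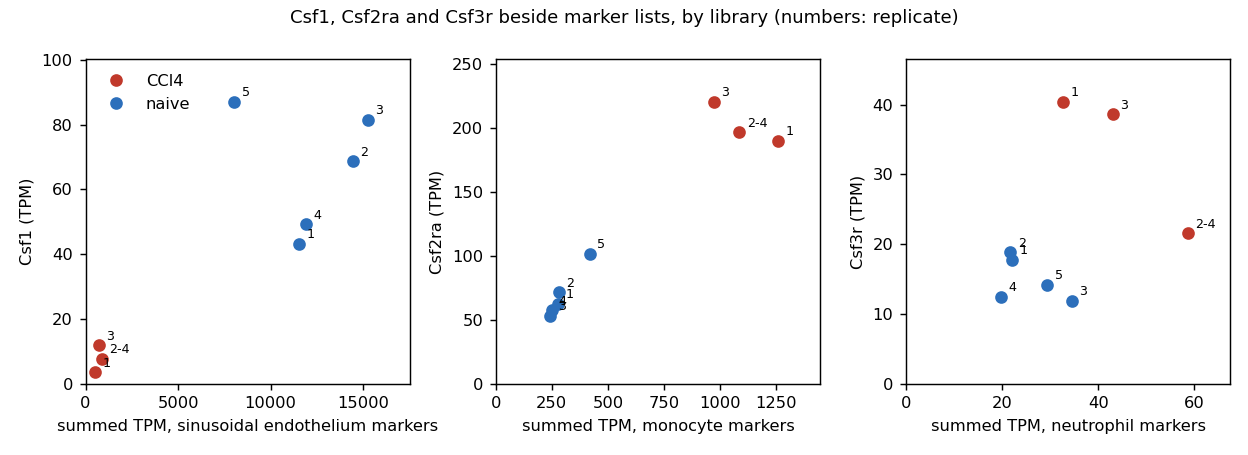
Levels (TPM) of Csf1, Csf2ra and Csf3r in each library against the summed TPM of markers of sinusoidal endothelium, monocytes and neutrophils, with CCl4 libraries in red, naive libraries in blue and replicate numbers beside the points. Naive replicate 5 has the highest naive Csf1 at the lowest naive endothelial sum, and the highest naive Csf2ra at the highest naive monocyte sum of 419.8 TPM. Among CCl4 libraries, replicate 3 has the highest Csf2ra at the lowest monocyte sum. It also has the highest Csf1, while replicate 2-4 has the highest endothelial sum.

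The levels most like Csf2ra over the 8 libraries were those of H4c18 (r = 0.997), Tspan13 (0.996) and Mapkapk3 (0.996), a histone, a tetraspanin and a kinase gene. For Csf2rb they were Basp1 (0.988), Ncf4 (0.987), which encodes a subunit of the phagocyte NADPH oxidase, and Lilr4b (0.986). For Csf2rb2 they were Coro2a (0.998), which encodes a coronin, Sirpb1a (0.996) and Vav1 (0.994), a guanine nucleotide exchange factor of blood cells. With the group means subtracted, r of these 9 genes lay between 0.952 for Lilr4b and 0.991 for Coro2a. On the same scale r was 0.889 between Csf2ra and Csf2rb, 0.884 between Csf2ra and Csf2rb2 and 0.931 between the beta chain genes.

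Csf3r, the G-CSF receptor, lies on chromosome 4 at positions 126023441 to 126044975 on the plus strand of GRCm38. It had 40.4, 21.6 and 38.6 TPM in CCl4 replicates 1, 2-4 and 3, against 17.8, 18.9, 11.9, 12.5 and 14.2 TPM in naive replicates 1 to 5. The groups did not overlap, but CCl4 replicate 2-4 was only 1.14 times the highest naive value. The means were 33.5 ± 10.4 TPM in CCl4 and 15.05 ± 3.14 TPM in naive libraries (SD, n = 3 and 5), a rise of 1.08 (SE 0.231, limma adjusted p = 0.00392). When only transcripts whose accession matched with its version were summed, the difference was 0.43 and did not pass (limma adjusted p = 0.127).

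Csf3r had the most transcripts, 19 in the tables, of which 7 were tested, 2 rose and none fell. XM_006502711.3, a predicted transcript, had 7.58, 5.31 and 7.36 TPM in CCl4 replicates 1, 2-4 and 3, against 0.00725, 0.209, 1.21, 0.540 and 0.172 TPM in naive replicates 1 to 5. Every CCl4 library was at least 4.39 times the highest naive library, and the log2 difference was 2.49 (limma adjusted p = 0.000742). Of the naive libraries only replicate 3 reached 1 TPM, so this transcript was tested through the group in which it was higher. It made up 18.8% to 24.6% of Csf3r TPM in CCl4 and 0.0407% to 10.2% in naive libraries. XM_011240423.2 rose by 0.90 (limma adjusted p = 0.0392), but reached 1 TPM in the CCl4 libraries alone, so it was tested through the group in which it was higher. Of the curated transcripts, NR_045561.1, a noncoding form, averaged 4.34 ± 0.996 TPM in CCl4 and 1.39 ± 0.870 TPM in naive libraries, without overlap, and its difference of 1.25 did not pass (limma adjusted p = 0.0561). NM_007782.3 averaged 3.11 ± 2.38 TPM in CCl4 and 1.87 ± 1.08 TPM in naive libraries and did not pass (limma adjusted p = 0.642).

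**Figure D4:**
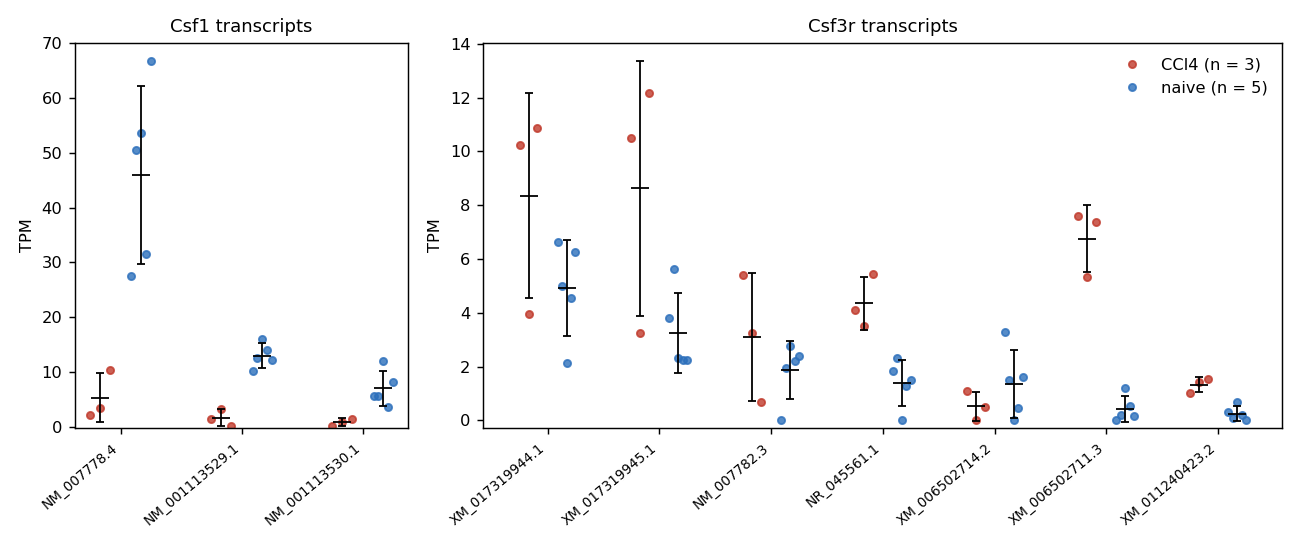
Levels in TPM of the tested transcripts of Csf1 and Csf3r, with each point 1 library, CCl4 left of naive, and bars at the mean ± SD. All 3 Csf1 transcripts are lower in CCl4 libraries, and of the Csf3r transcripts XM_006502711.3 has the widest gap between the groups.

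Neutrophils, the cells best known for G-CSF receptors, left little RNA in either group. Ly6g was listed at 0 in all 8 libraries, and S100a8 and S100a9, among the most abundant transcripts of neutrophils, reached at most 0.957 and 0.861 TPM in CCl4 and 2.18 and 4.19 TPM in naive libraries. Of 16 listed neutrophil markers 7 were tested, 2 rose and 2 fell, with 1 rising without any 1 of the CCl4 libraries and none falling without CCl4 replicate 3. The list summed to 44.8 ± 13.1 TPM in CCl4 and 25.5 ± 6.21 TPM in naive libraries, with Il1r2, a decoy receptor for IL-1, at 22.7 ± 11.6 TPM and 1.34 ± 1.03 TPM, and Cxcr2 at 11.6 ± 2.26 TPM and 9.86 ± 0.527 TPM. CCl4 replicate 2-4 had the highest neutrophil sum, 58.7 TPM, and the lowest Csf3r level of its group. The part of these cells in the Csf3r result was not tested.

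Of 8 tested genes of the G-CSF pathway, 3 rose and 1 fell, with a median log2 difference of 0.28. Tyk2 rose by 0.63, Gab2, an adaptor gene, by 0.62 and Lyn, a Src family kinase, by 0.46, while Jak1 fell by 1.92. Stat3, the main STAT protein of this receptor, averaged 66.7 ± 6.70 TPM in CCl4 and 65.0 ± 8.82 TPM in naive libraries. Bcl3 differed by 0.10 and Jak2 by 0.46, and neither passed. The ligand Csf3 was at most 0.284 TPM in CCl4 and 0.403 TPM in naive libraries. The genes most like Csf3r over the 8 libraries were Slc27a1 (r = 0.988), which encodes a fatty acid transporter, Trex1 (0.986), which encodes a DNA exonuclease, and Cited2 (0.985).

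The order of the levels differed between the groups mainly through Csf1. In CCl4 libraries the order by mean TPM was Csf2ra, Csf2rb, Csf2rb2, Csf3r, Csf1, Csf1r and Il34, and the ranges of Csf2rb2 and Csf3r and those of Csf1 and Csf1r overlapped. In naive libraries it was Csf2ra, Csf1, Csf2rb, Csf2rb2, Csf3r, Csf1r and Il34. There Csf3r and Csf1r were the only neighbours whose ranges did not overlap. Csf1 was thus 2nd by mean in naive libraries and 5th in CCl4 libraries.

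Growth factor receptors and ligands of related families also moved in both directions. Of 11 tested, 4 rose and 6 fell. Flt3, a relative of Csf1r in sequence that marks dendritic cells and their precursors, rose by 2.69 to 88.1 ± 21.6 TPM in CCl4, against 14.4 ± 10.6 TPM in naive libraries. Il6ra rose by 1.76. Kit, the receptor for stem cell factor, fell by 2.15 to 17.7 ± 4.85 TPM in CCl4, against 81.6 ± 19.8 TPM in naive libraries, and its ligand Kitl fell by 2.30. Il6st, the shared chain of the IL-6 receptor family, fell by 3.12 to 72.4 ± 18.4 TPM in CCl4, against 639.7 ± 159 TPM in naive libraries, and Epor by 2.35. The fall of the endothelial markers stands beside these falls, and its part in them was not tested.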

How the data were processed

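Kupffer cell RNA of mice was sequenced in 3 CCl4 and 5 naive libraries, from 1.5 ug of total RNA with a directional kit, per the labels' protocols. The authors deposited a TPM value for each RefSeq transcript, with library sums of 999999 to 1000001. Quantification used kallisto 0.42.4 and the build GRCm38, per the submitters' processing notes, with the index not given in the sources used here. Depth cannot be had from TPM, so precision comes from the spread among libraries.

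Transcripts were assigned to genes by accession without version through a RefSeq table of GRCm38.p6, which matched 86722 of 107384 transcripts (46184 with version), and summed. The test took genes that reached 1 TPM in 3 or more libraries, on log2(TPM + 1), which understates changes of low genes, with limma 3.58.1 in R 4.3.3 (group as the only term, eBayes with an intensity trend, Benjamini-Hochberg adjustment over all tested genes). Single transcripts were fitted in the same way. The 3 ratios were compared by exact permutation tests with scipy 1.17.1. The procedure was tested on simulated data. Noncoding 7SL and 7SK genes held 32.5% to 45.0% of TPM, which rescaling alternatives address.

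The genes and lists were chosen with earlier results of these data known. The rule for naming took all 7 genes and the 3 genes most like each by Pearson r. It also took up to 6 genes of each pathway list by adjusted p, and markers needed to say which were at 0. Of each cell type or state list it took the 2 most abundant markers. For some of these lists the text names at most 2 such markers, and for others none, so the rule was followed only in part. A gene that this rule took is not reported here. The ligand, receptor and STAT genes Csf2, Csf3, Il3, Il5, Il5ra, Il3ra, Ptprz1, Sdc1 and Stat3 and the kinase gene Jak2 beside the beta chain were named after their values were seen. Of the 18 lists, those of basophils and mast cells, hepatocytes, cholangiocytes, T and NK cells and B cells are described in the closing section.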

Additional observations from a re-analysis of the deposited data

Results flagged for a closer look

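The summed TPM of the 14 monocyte markers was 419.8 in naive replicate 5, while the other 4 naive libraries lay between 244.0 and 280.1 TPM. Its gap to the nearest library, relative to the range of the group, exceeded Dixon's 95% critical value of 0.71 for 5 libraries. It was the only such case among 44 sets of naive values examined, where chance gives about 1 in 20. The same library had the highest naive levels of Csf1, Csf2ra, Csf2rb and Csf2rb2.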

How the results depend on the processing

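The fall of Csf1 and the rises of Csf2ra, Csf2rb and Csf2rb2 kept their direction and passed the test in every setting run, and Csf3r did so except with version-matched transcripts (0.43, limma adjusted p = 0.127). Csf1r passed the test with quantile normalization (1.42), library weights (1.45), without CCl4 replicate 2-4 (1.63) and without naive replicate 2 (1.51). It also passed with the replicate block (2.28). For every gene, the difference in that fit rests on the libraries numbered 1 and 3 alone. Its p-values rest on a spread pooled over the tested genes, so passing there says little about any single gene. The labels share only the numbers 1 and 3 between groups. The deviations of same-numbered libraries correlated at 0.0772 and -0.0414, within the range of -0.122 to 0.159 of differently numbered libraries. These values show no sign of pairing, but so few cannot exclude it. The replicate block called 5312 genes against 5906, and no gene of the G-CSF pathway as higher against 3. With each library left out in turn, the log2 difference ranged from -3.35 to -2.61 for Csf1, 0.89 to 1.63 for Csf1r and its transcript, 1.48 to 1.71 for Csf2ra, 0.98 to 1.31 for Csf2rb, 1.08 to 1.30 for Csf2rb2 and 0.92 to 1.36 for Csf3r. The single Csf1r transcript passed without naive replicate 2 (limma adjusted p = 0.0484). The difference in the ratio of Csf2rb2 to Csf2rb, 0.05, turned to -0.024 with 5 TPM added and ranged from -0.028 to 0.11 with libraries left out, being -0.028 without CCl4 replicate 2-4 and -0.0087 without naive replicate 5. The ratio of Csf2ra to Csf2rb ranged from 0.35 to 0.60 and that of Csf1 to Il34 from -2.98 to -2.19. Genes called numbered 4578 to 6738 with libraries left out and 4084 to 7097 in the other settings. Quantile normalization called 4011 genes higher and 3086 lower, 56.5% higher against 40.5%, and moved the median of all genes by 0.17. Transcription factor genes called higher numbered 4 without a filter against 7, and genes of the beta common family called higher numbered 3 with version-matched transcripts against 5. Marker genes called lower ranged from 3 to 9 for hepatocytes against 7, from 2 to 8 for T and NK cells against 3, from 0 to 3 for neutrophils against 2, from 1 to 3 for stellate cells against 2 and from 0 to 4 for B cells against 0. Those called higher ranged from 2 to 6 for macrophages against 5, from 0 to 3 for neutrophils against 2 and from 2 to 5 for stellate cells against 4. The cause of these differences was not tested. No depth is known, so what depth limits could not be given.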

Other observations

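Markers of other cell types were measured beside the receptors that those cells carry. Basophils, mast cells and eosinophils depend on IL-3, IL-5 and stem cell factor. Of 13 listed markers 5 were tested, 1 rose and 3 fell, and the sums were 28.1 ± 7.25 TPM in CCl4 and 103.4 ± 23.1 TPM in naive libraries (SD, n = 3 and 5), most of it Kit. Fcer1a, the alpha chain of the high affinity IgE receptor, was listed at 0 in the CCl4 libraries and was at most 0.186 TPM in naive libraries. Of 10 hepatocyte markers 7 fell and none rose, with 3 falling without CCl4 replicate 3 and 4 without CCl4 replicate 2-4, and Alb averaged 273.8 ± 230 TPM in CCl4 and 509.0 ± 158 TPM in naive libraries and did not pass the test. Of 11 T, NK and innate lymphoid markers 1 rose and 3 fell, with 7 falling without CCl4 replicate 2-4. Of 7 B cell markers 1 rose, a call absent under several other settings, and 3 fell when CCl4 replicate 2-4 was left out. Of 6 tested cholangiocyte markers 1 rose. Of the 20 genes of the list of immediate early and dissociation stress responses, 16 rose and none fell, with Fos at 891.7 ± 57.9 TPM in CCl4 and 390.2 ± 60.2 TPM in naive libraries.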
